A study of Mus musculus with 108 samples.

Results

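The Cyp2c genes encode cytochrome P450 enzymes of the endoplasmic reticulum, and the family is described here by 10 of its mouse members in liver: Cyp2c29, Cyp2c37, Cyp2c38, Cyp2c39, Cyp2c40, Cyp2c50, Cyp2c54, Cyp2c55, Cyp2c69 and Cyp2c70. They were chosen by gene symbol, with the transcript of highest mean taken for each, from 25125 symbols in each of 3 tables. All 10 passed the filter on low values in the wild-type table, which asked for a mean of at least 10 over its libraries. In the table with Errg-Cre 8 passed (Cyp2c55 and Cyp2c69 did not), and in that with Esrrg LKO 7 passed (Cyp2c55, Cyp2c40 and Cyp2c69 did not). A further 6 symbols beginning with Cyp2c are in the tables and are given only for comparison.

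Cyp2c enzymes insert oxygen into drugs, steroids and fatty acids. In liver several of them turn arachidonic acid into epoxides or hydroxy acids, which act as lipid signals. Many are controlled by CAR and PXR, nuclear receptors that respond to foreign compounds and bile acids, and some differ between the sexes through growth hormone. Cyp2c70 stands apart in function, because it makes the muricholic acids, the hydrophilic bile acids of rodents.

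The data are RNA-seq libraries of whole liver from male mice, in 6 sets of 18 (6 zeitgeber times, ZT 2, 6, 10, 14, 18 and 22 h, with 3 replicates each). Wild-type C57BL/6J (B6) and 129S1/SvImJ (129) mice received normal chow or the high fat and sucrose diet D12492i (HFD), which gives 4 sets in 1 table. The other sets are Errg-Cre (129S1/SvImJ, HFD) and Esrrg LKO (hepatocyte-specific Esrrg knockout, HFD, B6 by title but with the strain label B6S1/SvImJ), each in a table of its own with no control set used here. The labels do not say how Cre was delivered, and they do not tie replicates to individual animals; a p-value here is therefore set by the scatter among libraries of a group, which may be technical.

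Each value is a read number of a transcript after quantile normalisation, which fixes the total of a library (10837743 in the wild-type table) and hides its depth. Esrrg, the targeted gene, lay between 7.64 and 39.4 in the 18 Esrrg LKO libraries and between 8.23 and 62.1 in the 18 Errg-Cre libraries, against 4.84 to 54.4 in B6 HFD. The values cover the whole transcript, not the deleted part alone, so these levels do not check the knockout. The wild-type library B6 HFD ZT 22 replicate 3 stood apart: the acute phase gene Saa1 was at 110328 there and at most 9658 in the other B6 HFD libraries. The summed neutrophil markers were at 14957 there against at most 23.0, and the summed hepatocyte markers at 312258 against at least 427783. Mir6236, a row that varied widely between libraries, had a median of 222.5 on chow against 8292 on HFD in B6, and of 2570 against 1104 in 129, so it moved with the diet and strain groups. The part that either plays in the differences below was not tested. Each call of a member that changed without the library or with Mir6236 as a covariate is given with that value. The marker counts that follow stand beside 27.5% of all genes called higher and 32.7% lower on HFD in B6, and 10.9% higher and 7.45% lower in 129. Markers of other liver cells moved too: 6 of 10 Kupffer cell markers rose with HFD in each strain, and 6 of 7 stellate and 6 of 8 sinusoidal endothelial markers rose in B6. The summed Kupffer markers lay between 824 and 2105 in B6 chow and between 1213 and 5885 in B6 HFD, and between 633 and 2522 in 129 chow and 914 and 2125 in 129 HFD. The summed stellate markers lay between 1851 and 2516 in B6 chow and between 2607 and 4630 in B6 HFD, with no overlap. Of the tested markers of bile ducts 1 of 2 rose in each strain, of blood 2 of 5 in B6 and 1 of 5 in 129, of intestine 2 of 2 in each and of neutrophils 0 of 2, and no lymphocyte marker was high enough to be tested. All 12 hepatocyte markers, which check the tissue label, were present in every set, and their sum, led by Alb, had a median of 1372283 on chow against 465148 on HFD in B6, and of 942768 against 1407490 in 129. By gene, 4 of the 12 rose and 3 fell with HFD in B6 (median difference -0.01 log2), near the shares over all genes. In 129, 3 rose and 1 fell (median 0.13). The counts by gene thus did not follow that sum. Apob did move with it, with medians of 408386 on chow against 110328 on HFD in B6, and 110328 against 376869 in 129. Alb held 863453, the highest value of the wild-type table, in all 18 B6 chow libraries. Every library holds the same set of sorted values, so the sum depends on which of the highest values Alb and Apob hold. What the shifts of other cells add to the differences below was not tested, and in bulk liver fewer hepatocytes and less RNA per hepatocyte cannot be told apart.

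The 10 genes lie on chromosome 19 of mm10 within 1180.3 kb, 5 on each strand. In order of start they are Cyp2c55 (39007019 to 39042687, plus strand), Cyp2c29 (39287085 to 39330713, plus), Cyp2c38 (39389556 to 39463075, minus) and Cyp2c39 (39510822 to 39568529, plus). They continue with Cyp2c40 (39767073 to 39812814, minus), Cyp2c69 (39842660 to 39886769, minus) and Cyp2c37 (39992424 to 40012243, plus). The last are Cyp2c54 (40037940 to 40073813, minus), Cyp2c50 (40089679 to 40113955, plus) and Cyp2c70 (40153361 to 40187286, minus).

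Some of these copies are close enough for short reads to be shared. The spliced transcripts of Cyp2c40 and Cyp2c69 were identical at 97.8% of their aligned bases, those of Cyp2c37 and Cyp2c50 at 95.8%, those of Cyp2c54 and Cyp2c50 at 95.0%, and those of Cyp2c38 and Cyp2c39 at 93.8%. Over all 45 pairs of members the median was 77.2% and the lowest 67.2%. Of all windows of 50 bases in the Cyp2c40 transcript, 72.1% occur unchanged in another Cyp2c transcript, and for Cyp2c69 the share is 54.8%. It is 30.7% for Cyp2c50, 30.1% for Cyp2c37, 25.7% for Cyp2c54, 11.4% for Cyp2c39 and 7.45% for Cyp2c38. For Cyp2c29 it is 2.08%, and for Cyp2c55 and Cyp2c70 it is 0%, so the levels of these 3 rest almost wholly on sequence of their own. The read length is not given in the sources used here, and mm10 is the B6 genome, so reads of 129 that carry variants may have been placed elsewhere or lost.

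**Figure D1:**
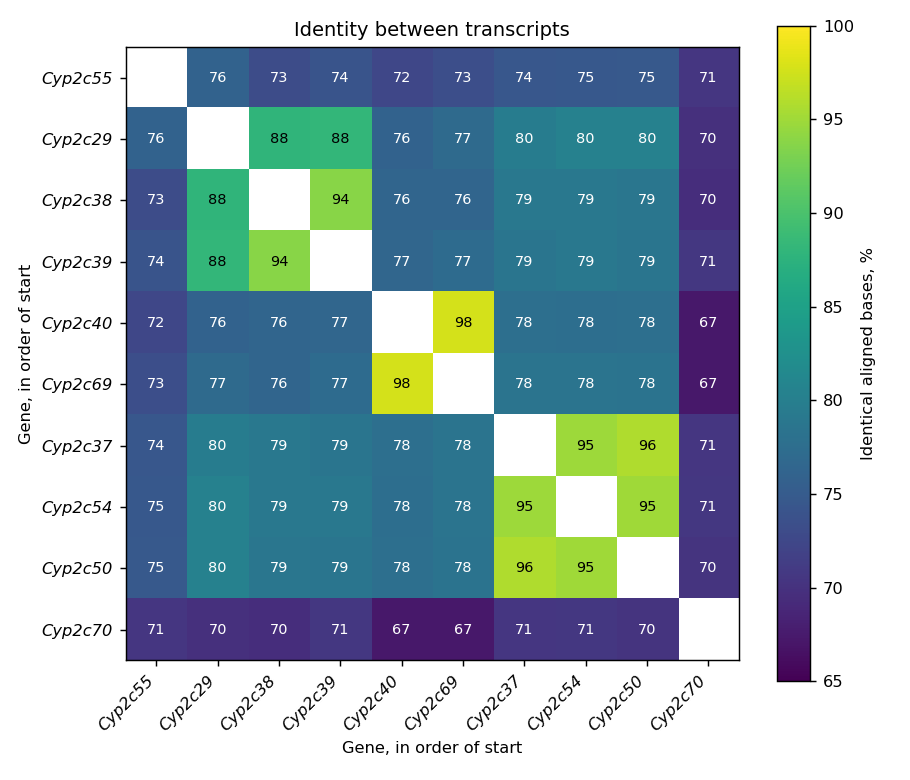
Percent of aligned bases that are identical between the spliced transcripts of each pair of the 10 Cyp2c genes, ordered by start along the chromosome on both axes; colour runs from 65% to 100%. Cyp2c40 with Cyp2c69, Cyp2c38 with Cyp2c39, and Cyp2c37, Cyp2c54 and Cyp2c50 among themselves form the blocks above 90%, and Cyp2c70 is the least similar.

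The stretches around the annotated starts show the same kinship. Each line gives 190 bases on the gene's own strand, from 170 bases before the annotated start (RefSeq, GRCm38.p6, the mm10 sequence), for 3 related genes that differ in their diet and strain values, for the near-identical pair, and for the bile acid enzyme. Capitals mark TATAAA, the letters of a TATA box, and AGGTCA, a site element of many nuclear receptors.
Cyp2c29, chr19:39286915-39287104, plus strand: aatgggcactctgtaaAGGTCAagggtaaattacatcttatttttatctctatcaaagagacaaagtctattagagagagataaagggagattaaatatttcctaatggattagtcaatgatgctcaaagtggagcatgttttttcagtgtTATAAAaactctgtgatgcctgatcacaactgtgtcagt
Cyp2c38, chr19:39463056-39463245, minus strand: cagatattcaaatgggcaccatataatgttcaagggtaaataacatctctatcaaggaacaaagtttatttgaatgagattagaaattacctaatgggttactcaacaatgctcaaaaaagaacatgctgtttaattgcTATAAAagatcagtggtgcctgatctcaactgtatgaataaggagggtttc
Cyp2c39, chr19:39510652-39510841, plus strand: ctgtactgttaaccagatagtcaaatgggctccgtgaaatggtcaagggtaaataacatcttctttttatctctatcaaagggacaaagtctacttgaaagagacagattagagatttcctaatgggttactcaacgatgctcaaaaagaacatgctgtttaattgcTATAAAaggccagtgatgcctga
Cyp2c40, chr19:39812795-39812984, minus strand: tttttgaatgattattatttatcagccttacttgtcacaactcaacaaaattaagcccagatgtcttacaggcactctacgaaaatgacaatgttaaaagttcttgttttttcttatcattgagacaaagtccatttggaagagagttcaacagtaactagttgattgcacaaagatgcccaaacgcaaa
Cyp2c69, chr19:39886750-39886939, minus strand: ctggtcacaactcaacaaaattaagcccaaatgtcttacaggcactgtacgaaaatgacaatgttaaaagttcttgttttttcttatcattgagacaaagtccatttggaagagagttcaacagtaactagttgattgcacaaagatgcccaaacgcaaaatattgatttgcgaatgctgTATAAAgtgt
Cyp2c70, chr19:40187267-40187456, minus strand: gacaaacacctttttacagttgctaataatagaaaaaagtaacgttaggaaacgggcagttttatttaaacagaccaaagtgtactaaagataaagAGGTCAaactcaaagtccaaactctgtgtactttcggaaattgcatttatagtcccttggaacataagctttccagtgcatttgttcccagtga

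Over windows of 300 bases around the start, the promoters of Cyp2c40 and Cyp2c69 were identical at 98.9% of 270 aligned bases, and those of Cyp2c38 and Cyp2c39 at 88.2% of 271. The letters TATAAA on the gene's strand were found in 6 of the 9 members with a listed promoter (Cyp2c55, Cyp2c29, Cyp2c38, Cyp2c39, Cyp2c40 and Cyp2c69), against 8.32% of 32851 promoters of the same length. In Cyp2c40 they lie 40 bases after the annotated start, outside the stretch printed, and in Cyp2c69 10 bases after it. AGGTCA on either strand was found in Cyp2c29 (154 bases before the start) and Cyp2c70 (74 bases before it), so in 2 of 9, against 16.3% of all promoters. Neither TTCNNNGAA, the letters of a STAT site (found in 8.3% of all promoters), nor TTATGNAA, those of a D-box (3.38%), was found in any of the 9 windows on either strand.

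The order of the levels was set by Cyp2c29, an arachidonic acid epoxygenase. Per kb of transcript its median was 13198 in B6 chow and 14046 in 129 chow, and it made up a median of 62.5% and 69.6% of the summed level per kb of the 10 genes. On HFD it was still the first by median, with 2659 per kb in B6 and 3569 in 129, but its share of the sum was 33.5% and 38.9%. In B6 chow the next were Cyp2c50 (3346 per kb), Cyp2c70 (1898), Cyp2c54 (1204) and Cyp2c37 (903). In B6 HFD Cyp2c50 had 2408 per kb, so the distance from Cyp2c29 (mean 2491 ± 920 SD, n = 18) was within the spread. Cyp2c37 (992 per kb), Cyp2c54 (911) and Cyp2c70 (901) could not be put in an order in B6 HFD beyond their spread. The lower places in B6 chow were held by Cyp2c38 (188), Cyp2c55 (112), Cyp2c40 (50.9), Cyp2c69 (19.8) and Cyp2c39 (11.9). In 129 chow the order after Cyp2c29 was Cyp2c70 (2522 per kb), Cyp2c50 (1673), Cyp2c54 (1182), Cyp2c39 (395), Cyp2c37 (215), Cyp2c38 (87.9), Cyp2c55 (11.9), Cyp2c69 (1.38) and Cyp2c40 (0.96). In 129 HFD it was Cyp2c70 (1952), Cyp2c50 (1541), Cyp2c54 (1102), Cyp2c39 (546), Cyp2c37 (249) and Cyp2c38 (107), with the last 3 below 1. In B6 chow Cyp2c39 (mean 13.9 ± 7.60 SD per kb, n = 18) and Cyp2c69 (19.9 ± 11.7) did not differ beyond their spread, and in 129 Cyp2c39 stood in the middle of the order. In 129 HFD Cyp2c70 (mean 2112 ± 553 SD, n = 18) and Cyp2c50 (mean 1523 ± 166) lay about 1 SD apart.

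**Figure D2:**
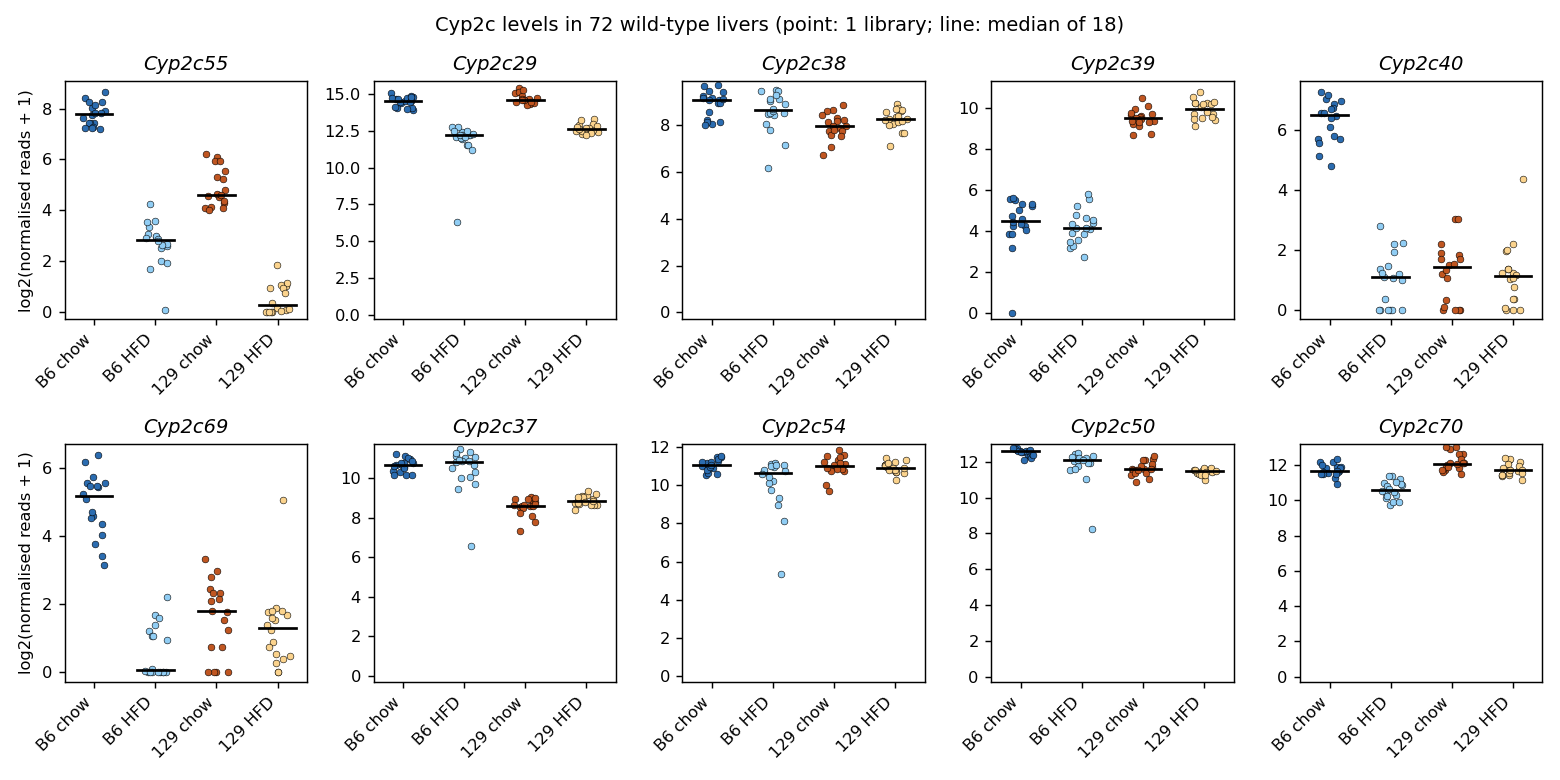
Level of each Cyp2c gene in the 72 wild-type libraries, as log2(normalised reads + 1), by set on the horizontal axis; each point is 1 library and each line the median of the 18 libraries of a set, and the vertical scale differs between panels. Cyp2c39 is high in both 129 sets, Cyp2c40 and Cyp2c69 are highest in B6 chow, Cyp2c55 and Cyp2c29 are lower on HFD in both strains, and 1 B6 HFD library lies far below the others for Cyp2c29, Cyp2c37, Cyp2c54 and Cyp2c50.

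The diet comparison asked how chow and HFD livers of a strain differ, averaged over the 6 times. In B6, 7 of the 10 genes were lower on HFD, none was higher, and 3 did not pass the test (limma, Benjamini-Hochberg adjusted p below 0.05 over 11287 genes). In 129, 3 of 10 were lower and none was higher. Cyp2c40 and Cyp2c69 are among the 7 and were high enough to be tested through B6 chow alone, so they had to differ there. Of all genes tested 32.7% were called lower and 27.5% higher in B6, and 7.45% lower and 10.9% higher in 129, so most genes were called in B6. With Mir6236 as a covariate the genes called in B6 were 564, against 6792 without it. The median difference of the 10 genes was -1.04 in B6 and -0.15 in 129 on the log2(value + 1) scale, against -0.06 and 0.04 over all genes.

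Cyp2c55 and Cyp2c29 fell on HFD in both strains. Cyp2c55, a hydroxylase of arachidonic acid known to be induced through CAR and PXR, lay between 147 and 403 (median 221) in B6 chow and between 0.05 and 17.98 (median 6.04) in B6 HFD. In 129 chow it lay between 15.0 and 74.3 (median 23.5), and in 129 HFD between 0 and 2.54 (median 0.19), with 5 of the 18 libraries at 0. In neither strain did the 2 diets overlap. The difference was -5.10 ± 0.22 (log2, SE) in B6 (limma adjusted p = 3.02e-26) and -4.39 ± 0.22 in 129 (limma adjusted p = 8.56e-23), lower at 6 of 6 times in each. With values near 0 on HFD its size depends on the pseudocount and was -3.83 in B6 and -1.92 in 129 with a pseudocount of 10.

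Cyp2c29 lay between 15157 and 33663 (median 23426) in B6 chow and between 76.7 and 6982 (median 4720) in B6 HFD. In 129 the range was 19566 to 43705 (median 24932) on chow and 4661 to 10003 (median 6335) on HFD, again with no overlap. The lowest value in B6 HFD is that of ZT 22 replicate 3, and the other B6 HFD libraries lay at 2342 or more. The difference was -2.66 ± 0.24 in B6 (limma adjusted p = 2.92e-13) and -2.06 ± 0.24 in 129 (limma adjusted p = 3.59e-09), at 6 of 6 times in each. Without ZT 22 replicate 3 it was -2.34 ± 0.11 in B6. Cyp2c55 and Cyp2c29 shared none of their 50-base windows with each other.

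Cyp2c40 and Cyp2c69 fell in B6 and did not pass the test in 129. Cyp2c40, a hydroxylase of arachidonic acid, lay between 27.3 and 154 (median 91.1) in B6 chow and between 0 and 5.98 (median 1.14) in B6 HFD. Cyp2c69 lay between 7.86 and 82.5 (median 34.8) in B6 chow and between 0 and 3.54 (median 0.04) in B6 HFD. For both genes the 2 diets did not overlap in B6. The differences were -5.31 ± 0.30 for Cyp2c40 (limma adjusted p = 1.68e-20) and -4.30 ± 0.34 for Cyp2c69 (limma adjusted p = 4.90e-15), and -2.99 and -1.92 with a pseudocount of 10. In 129 both genes were near 0 on either diet: Cyp2c40 had medians of 1.71 on chow and 1.19 on HFD, and Cyp2c69 of 2.43 and 1.46. The 129 differences of -0.11 ± 0.30 and -0.29 ± 0.34 did not pass the test (limma adjusted p = 0.865 and 0.629). The library 129 HFD ZT 14 replicate 1 held the highest values of that set, 19.9 for Cyp2c40 and 32.2 for Cyp2c69.

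The diet by strain interaction was called for Cyp2c40 (5.21 ± 0.43, limma adjusted p = 4.73e-13), Cyp2c69 (4.0 ± 0.49, limma adjusted p = 4.86e-08) and Cyp2c70 (0.70 ± 0.15, limma adjusted p = 0.000525), so for 3 of 10 and with a positive sign in each, against 34.4% of all genes (20.1% positive), a count of 3881 that was 14 with Mir6236 as a covariate. Cyp2c40 and Cyp2c69 passed the filter on low values through B6 chow alone (means of 87.6 and 35.0 there, and under 3 in each of the other 3 sets). They were near 0 on chow in 129, where a fall could not have been measured, so their interactions restate the B6 fall and do not show that 129 responds differently. With a pseudocount of 10 their interactions were 2.98 and 1.87. With Mir6236 as a covariate the interaction was 4.84 for Cyp2c40 (limma adjusted p = 1.42e-05) and 3.81 for Cyp2c69 (limma adjusted p = 0.0123). For Cyp2c55 and Cyp2c29 the strains could not be told apart in their diet difference (interaction 0.71 ± 0.31 and 0.61 ± 0.34, limma adjusted p = 0.0629 and 0.156), except that Cyp2c55 passed with a pseudocount of 10 (1.91, limma adjusted p = 2.75e-14) and without the 3 libraries with most low values (0.77, limma adjusted p = 0.0388). For Cyp2c54 the interaction was 0.90 ± 0.37 (limma adjusted p = 0.0512) and for Cyp2c50 0.52 ± 0.23 (limma adjusted p = 0.0748). Without ZT 22 replicate 3 of B6 HFD both passed, with 0.60 (limma adjusted p = 0.0465) and 0.30 (limma adjusted p = 0.0312). Cyp2c54 also passed with a pseudocount of 10 (limma adjusted p = 0.0430) and without the 3 libraries with most low values (limma adjusted p = 0.0465). For Cyp2c38 and Cyp2c39 it was 0.60 ± 0.25 and 0.63 ± 0.34 (limma adjusted p = 0.0547 and 0.143), and Cyp2c38 passed without replicate 1 (limma adjusted p = 0.0252). Cyp2c39 passed without the 3 libraries with most low values (0.91, limma adjusted p = 0.00321), with a pseudocount of 10 (0.64, limma adjusted p = 0.0137) and without replicate 3 (0.82, limma adjusted p = 0.0366).

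The near-identical neighbours Cyp2c67 and Cyp2c68, which are not among the 10, did not share the size of the Cyp2c40 and Cyp2c69 fall. Their transcripts matched that of Cyp2c40 at 97.6% and 98.0% of aligned bases. In B6 chow their medians were 1371 and 1593, far above the 91.1 of Cyp2c40, and the diet difference in B6 was -0.62 ± 0.10 for Cyp2c67 and -0.999 ± 0.10 for Cyp2c68 (limma adjusted p = 9.29e-07 and 2.14e-11). Reads of these copies that were placed wrongly would weigh most on the low Cyp2c40 and Cyp2c69 values, so the levels of the pair are uncertain.

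Cyp2c70, the muricholic acid enzyme, fell in both strains and further in B6. It lay between 1951 and 5205 (median 3223) in B6 chow and between 836 and 2663 (median 1530) in B6 HFD. In 129 it lay between 2816 and 8389 (median 4282) on chow and between 2244 and 5311 (median 3314) on HFD. The diets overlapped in both strains. The difference was -1.11 ± 0.11 in B6 (limma adjusted p = 3.06e-12, lower at 6 of 6 times) and -0.41 ± 0.11 in 129 (limma adjusted p = 0.00523, lower at 4 of 6 times). In 129 the call was lost without replicate 1 (limma adjusted p = 0.0811) and without replicate 2 (limma adjusted p = 0.0953), and its interaction was lost after removal of the GC and length trend (0.32, limma adjusted p = 0.115), without replicate 3 (0.49, limma adjusted p = 0.0606) and with Mir6236 as a covariate (0.16, limma adjusted p = 0.907). Cyp2c70 was the member that ZT 22 replicate 3 of B6 HFD did not set apart among those with levels above 100: it held 2109 there.

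Cyp2c54 and Cyp2c50, both epoxygenases of arachidonic acid, fell by less. Cyp2c54 lay between 1495 and 2938 (median 2120) in B6 chow and between 40.4 and 2273 (median 1605) in B6 HFD, and differed by -0.97 ± 0.26 (limma adjusted p = 0.00128). Cyp2c50 lay between 4376 and 7024 (median 6100) in B6 chow and between 307 and 5641 (median 4390) in B6 HFD, and differed by -0.72 ± 0.17 (limma adjusted p = 0.000224). Both were lower at 6 of 6 times, and both sets overlapped. Without ZT 22 replicate 3, which held the lowest value of each gene, the differences were -0.67 ± 0.17 and -0.50 ± 0.08 and remained called. Both calls were lost with Mir6236 as a covariate (limma adjusted p = 0.420 and 0.448). In 129 the differences were -0.07 ± 0.26 and -0.19 ± 0.17 and did not pass (limma adjusted p = 0.904 and 0.468).

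Cyp2c37, Cyp2c38 and Cyp2c39 did not pass the diet test in either strain. Cyp2c37, a hydroxylase of arachidonic acid, had medians of 1637 on chow and 1799 on HFD in B6, and of 389 and 451 in 129. Its differences were -0.22 ± 0.20 in B6 (0.01 ± 0.13 without ZT 22 replicate 3) and 0.31 ± 0.20 in 129 (limma adjusted p = 0.348 and 0.296). Cyp2c38 differed by -0.32 ± 0.18 and 0.28 ± 0.18 (limma adjusted p = 0.111 and 0.297). Cyp2c39, known as a hydroxylase of retinoic acid, differed by -0.18 ± 0.24 and 0.45 ± 0.24 (limma adjusted p = 0.523 and 0.211). It passed as lower in B6 without the 3 libraries with most low values (-0.47, limma adjusted p = 0.0178) and as higher in 129 with a pseudocount of 10 (0.44, limma adjusted p = 0.0259). The confidence interval of the B6 difference of Cyp2c37 runs from -0.60 to 0.17, which leaves out a fall of the size seen for Cyp2c29.

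**Figure D3:**
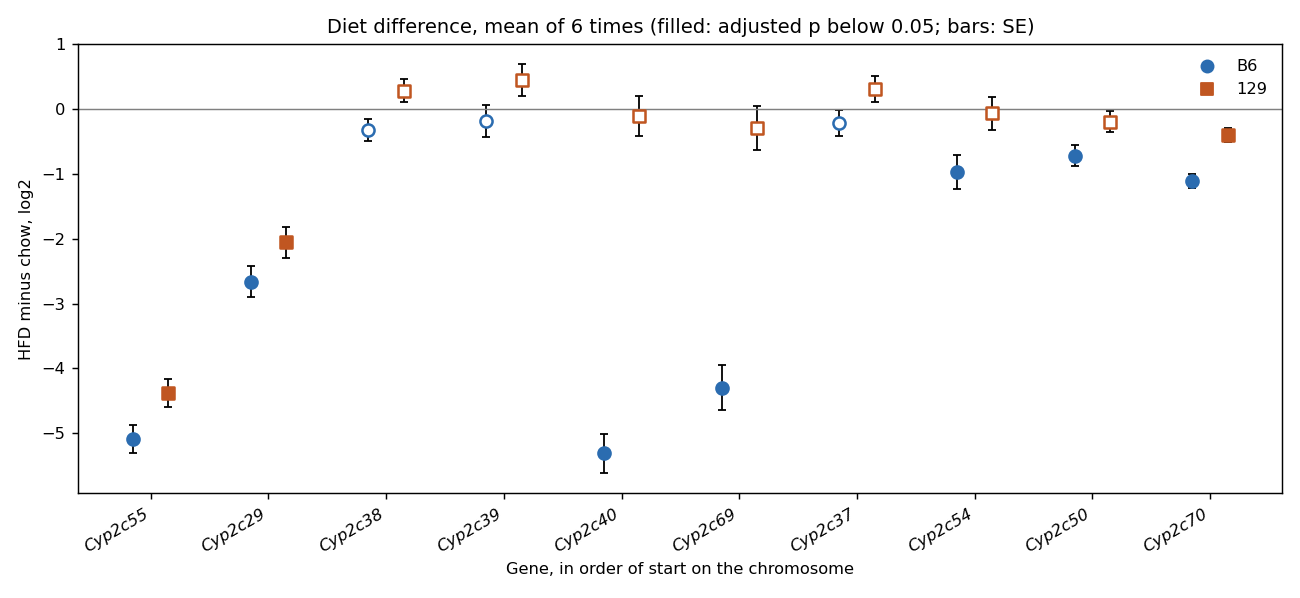
Difference between HFD and chow (log2, mean of 6 times, bars are SE) for each Cyp2c gene in order of start, in B6 (circles) and 129 (squares); filled symbols have a limma adjusted p below 0.05 over all genes. Cyp2c55 and Cyp2c29 are far below 0 in both strains, Cyp2c40 and Cyp2c69 in B6 alone, and Cyp2c38, Cyp2c39 and Cyp2c37 lie near 0.

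Members that follow each other in order of start were then compared within libraries, as the log2 ratio of their values. There were 9 such pairs in 2 strains, so 18 tests (two-sided permutation of the diet labels within each time, 100000 draws). Other Cyp2c symbols lie between some of them. Cyp2c67 and Cyp2c68 lie between Cyp2c39 and Cyp2c40, and Cyp2c65, Cyp2c66 and Cyp2c53-ps between Cyp2c55 and Cyp2c29. The ratio changed with diet for 6 pairs in B6 and 4 in 129 (Benjamini-Hochberg adjusted p below 0.05 over the 18 tests). Among the 6 are Cyp2c39 to Cyp2c40 (5.13), Cyp2c40 to Cyp2c69 (-1.01) and Cyp2c69 to Cyp2c37 (-4.08). Cyp2c40 and Cyp2c69 passed the filter through B6 chow alone, so their ratios to other genes had to move. The ratios use the values of the diet differences above and are not separate evidence. Other gene pairs were not tested, so these counts have no share to stand beside. The ratio of Cyp2c29 to Cyp2c38, which share 87.9% of aligned bases, fell from 5.57 ± 0.46 (SD, n = 18) on chow to 3.23 ± 1.15 on HFD in B6 and from 6.73 ± 0.39 to 4.39 ± 0.47 in 129. Both changes, of -2.34, had an adjusted permutation p of 2.57e-05, which rests on the smallest p that 100000 draws can give (1e-05). The ratio of Cyp2c37 to Cyp2c54 rose by 0.75 in B6 (adjusted permutation p = 2.57e-05) and by 0.38 in 129 (adjusted permutation p = 0.000113), although these transcripts share 94.8% of aligned bases.

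The ratio of Cyp2c38 to Cyp2c39 changed by -0.14 in B6 (adjusted permutation p = 0.838) and by -0.17 in 129 (adjusted permutation p = 0.0191). The latter was lost without replicate 1 (adjusted permutation p = 0.0676) or replicate 2 (adjusted permutation p = 0.147). The ratio of Cyp2c54 to Cyp2c50 differed by -0.25 in B6 and 0.13 in 129 and did not pass (adjusted permutation p = 0.156 and 0.0753), although it did in 129 without replicate 3 (0.16, adjusted permutation p = 0.0171). The ratio of Cyp2c50 to Cyp2c70 differed by 0.39 in B6 (adjusted permutation p = 0.156), and by 0.60 without ZT 22 replicate 3, which passes (adjusted permutation p = 2.25e-05). The ratio of Cyp2c40 to Cyp2c69 fell by 1.01 in B6 (adjusted permutation p = 0.00068), with both genes near 0 on HFD, where the pseudocount sets the ratio.

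Cyp2c29 made up most of the family's sum on chow. The 10 genes together had a median of 36565 on chow and 14612 on HFD in B6, and of 34097 on chow and 16952 on HFD in 129. Without Cyp2c29 the medians were 14155, 9921, 10357 and 10128, so that in 129 the sum of the other 9 was nearly the same on both diets. Reads that change place among the 10 stay within their sum, but reads that go to another Cyp2c symbol, such as Cyp2c67 or Cyp2c68, leave it. Over all 16 Cyp2c symbols the medians were 41159 on chow and 17266 on HFD in B6, and 38818 and 20375 in 129. In 129 the ranges of the sum without Cyp2c29 were 7192 to 19137 on chow and 8077 to 12300 on HFD, and thus overlapped widely.

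The strain comparison asked how 129 and B6 livers differ on the same diet. On chow 8 of 10 genes passed the test, 6 lower and 2 higher in 129, against 27.5% of all genes lower and 25.4% higher. Cyp2c40 and Cyp2c69 are among the 6 and were high enough to be tested through B6 chow alone, so they had to differ there. On HFD 6 of 10 passed, 2 lower and 4 higher in 129, against 13.3% of all genes lower and 19.0% higher. The strain contrasts use the same sets as the diet contrasts, so they are not separate evidence, and what mm10 as the B6 genome adds to them was not tested.

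Cyp2c39 was the member furthest higher in 129 on both diets. It lay between 0 and 48.6 (median 21.9) in B6 chow and between 417 and 1455 (median 729) in 129 chow, and between 5.77 and 55.3 (median 17.0) in B6 HFD and 569 and 1784 (median 1008) in 129 HFD. Every 129 library was above every B6 library. The strain difference was 5.11 ± 0.24 on chow (limma adjusted p = 4.75e-25) and 5.74 ± 0.24 on HFD (limma adjusted p = 2.38e-27), at 6 of 6 times on each diet. Cyp2c38, its closest copy, went the other way on chow. It lay between 256 and 845 (median 538) in B6 chow and between 104 and 473 (median 251) in 129 chow, which overlap (-0.93 ± 0.18, limma adjusted p = 2.16e-05). That call was lost with Mir6236 as a covariate (limma adjusted p = 0.148), and on HFD the difference was -0.33 ± 0.18 (limma adjusted p = 0.157), or -0.43 without ZT 22 replicate 3 of B6 HFD, which passes (limma adjusted p = 0.0467), as it does with Mir6236 as a covariate (-0.63, limma adjusted p = 0.0196).

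Cyp2c37 was lower in 129 on both diets. It lay between 1149 and 2372 in B6 chow and between 158 and 517 in 129 chow, with no overlap (-2.11 ± 0.20, limma adjusted p = 3.74e-13). On HFD it lay between 92.6 and 2859 in B6 and between 333 and 651 in 129, and the overlap came from ZT 22 replicate 3 alone, since the other B6 HFD libraries were at 705 or more (-1.58 ± 0.20, limma adjusted p = 2.41e-09). Of its near copies, Cyp2c50 was lower in 129 on chow (-0.90 ± 0.17, limma adjusted p = 1.20e-05), and Cyp2c54 differed by -0.05 ± 0.26 (limma adjusted p = 0.872). On HFD Cyp2c50 differed by -0.38 ± 0.17 (limma adjusted p = 0.0728), or by -0.60 ± 0.08 without ZT 22 replicate 3, which passes (limma adjusted p = 2.41e-08). Cyp2c54 was higher in 129 on HFD (0.84 ± 0.26, limma adjusted p = 0.00873), or by 0.55 without ZT 22 replicate 3 of B6 HFD (limma adjusted p = 0.0107), a call lost without replicate 2 (limma adjusted p = 0.122), without replicate 3 (limma adjusted p = 0.0562) and with Mir6236 as a covariate (limma adjusted p = 0.0808).

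Cyp2c55 was lower in 129 on chow (-2.87 ± 0.22, limma adjusted p = 1.39e-16) and on HFD (-2.16 ± 0.22, limma adjusted p = 3.61e-12, -0.61 with a pseudocount of 10). Cyp2c40 and Cyp2c69 were lower in 129 on chow (-5.06 ± 0.30 and -3.35 ± 0.34, limma adjusted p = 1.02e-20 and 8.43e-12, or -2.92 and -1.69 with a pseudocount of 10) and did not pass on HFD (0.15 ± 0.30 and 0.65 ± 0.34, limma adjusted p = 0.760 and 0.148), where both strains were near 0, except that Cyp2c69 passed without replicate 3 (1.04, limma adjusted p = 0.0461). Cyp2c40 on chow did not overlap between strains. Both genes passed the filter through B6 chow alone, so their strain difference on chow was bound to appear. Cyp2c70 was higher in 129 on chow (0.46 ± 0.11, limma adjusted p = 0.000373) and on HFD (1.17 ± 0.11, limma adjusted p = 3.06e-13). Cyp2c29 did not pass on chow (0.23 ± 0.24, limma adjusted p = 0.426), except without replicate 3 (0.26, limma adjusted p = 0.0444) and after removal of the GC and length trend (0.56, limma adjusted p = 0.0447), and was higher in 129 on HFD (0.84 ± 0.24, limma adjusted p = 0.00487), or 0.51 ± 0.11 without ZT 22 replicate 3. That call was lost with Mir6236 as a covariate (limma adjusted p = 0.114).

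**Figure D4:**
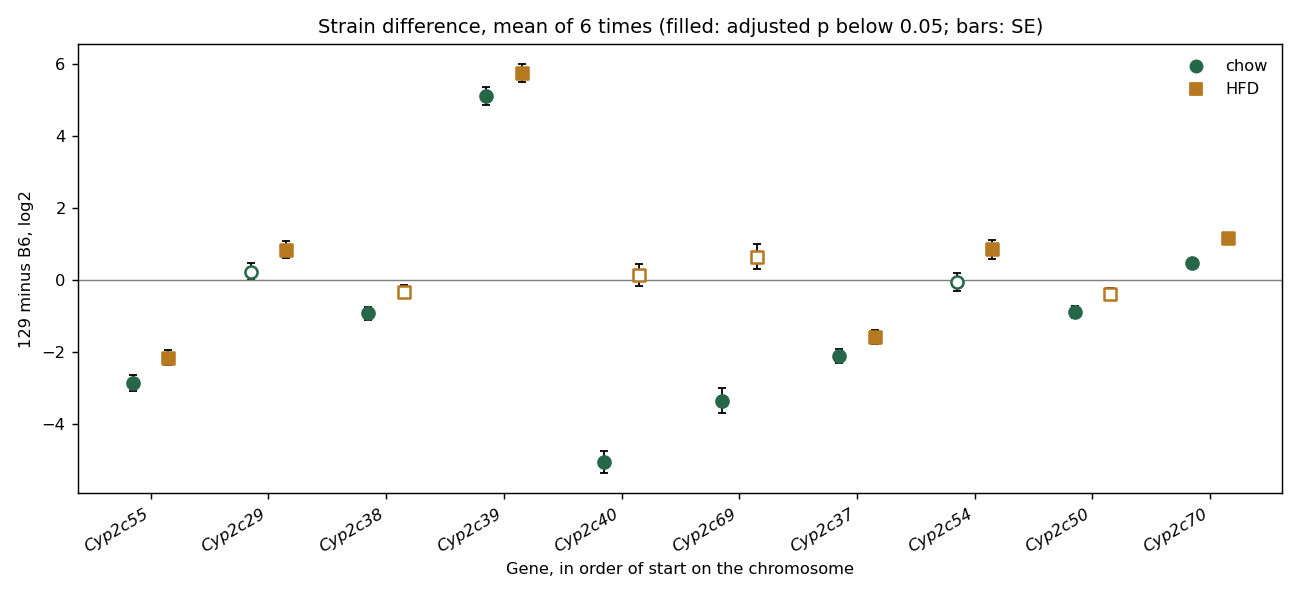
Difference between 129 and B6 (log2, mean of 6 times, bars are SE) for each Cyp2c gene in order of start, on chow (circles) and HFD (squares); filled symbols have a limma adjusted p below 0.05 over all genes. Cyp2c39 lies above 5 on both diets next to Cyp2c38 below 0, and Cyp2c40 and Cyp2c69 are far below 0 on chow alone.

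The daily rhythm was tested within each set as a cosine of 24 h. No member passed in B6 chow, where 6.16% of all genes did, nor in B6 HFD, where 4.08% did, nor in 129 HFD, where 7.04% did. Before adjustment 0 members were below 0.05 in the limma F test in B6 chow, 3 in B6 HFD (Cyp2c70, Cyp2c50 and Cyp2c29) and 1 in 129 HFD (Cyp2c70). The share of all genes at this unadjusted cut was not taken, so these counts have none to stand beside. ZT 22 replicate 3 of B6 HFD lay below the other libraries of its set for Cyp2c29 and Cyp2c50. Over 11 alternatives their B6 HFD amplitudes ran from 0.19 to 1.11 and from 0.06 to 0.76. In 129 chow, where 47.8% of all genes passed, 1 of 10 did, which was Cyp2c70. Its amplitude was 0.50 log2 with a peak at ZT 2.75 h (limma adjusted p = 0.00159), and the call was lost without replicate 2 (limma adjusted p = 0.0654). Without ZT 22 replicate 3 of B6 HFD, which enters the shared estimate of the spread, 5 members passed in 129 chow: Cyp2c70, Cyp2c50, Cyp2c37, Cyp2c54 and Cyp2c55. Their amplitudes were unchanged by that, at 0.41 for Cyp2c50 (limma adjusted p = 0.000226) and 0.50 for Cyp2c54 (limma adjusted p = 0.0343). They were 0.39 for Cyp2c37 (limma adjusted p = 0.0238) and 0.58 for Cyp2c55 (limma adjusted p = 0.0373). In the same fit 5638 of all 11287 genes passed in 129 chow, so the count of 5 of 10 was near the share over all genes.

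The Cyp2c70 profile in 129 chow was highest at ZT 2, where the 3 libraries held 7738, 8203 and 8389, and the means of the other times lay between 3699 and 5560. In 129 HFD the highest means were 4744 at ZT 14 and 4326 at ZT 18, and the fitted peak was at ZT 16.0 h (amplitude 0.39, limma adjusted p = 0.0699). That rhythm passed with Mir6236 as a covariate (limma adjusted p = 0.0165) and after removal of the GC and length trend (limma adjusted p = 0.00138). It also passed without the 3 libraries with most low values (limma adjusted p = 0.0458). At ZT 2 the HFD libraries held 3305, 3230 and 2650, all below those of chow. The change of the rhythm with diet in 129 was called for Cyp2c70 alone of the 10 (change vector 0.88 log2, limma adjusted p = 0.00932), against 1.26% of all genes, and was lost without any 1 of the 3 replicate numbers (limma adjusted p = 0.0560 to 0.295) and with Mir6236 as a covariate (limma adjusted p = 0.122). In B6 no member changed its rhythm with diet (0.0532% of all genes did) by limma. Cyp2c37 alone was below 0.05 before adjustment, a cut at which the share of all genes was not taken.

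**Figure D5:**
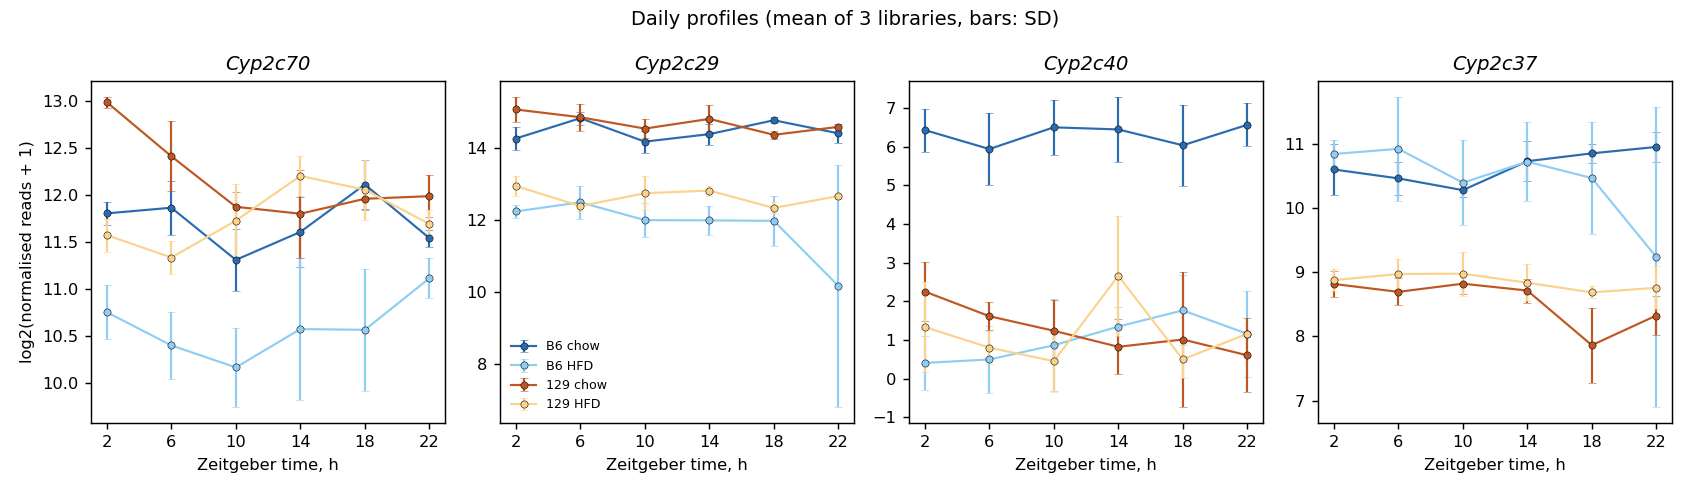
Daily profiles of Cyp2c70, Cyp2c29, Cyp2c40 and Cyp2c37 in the 4 wild-type sets, as log2(normalised reads + 1) against zeitgeber time in hours; points are means of 3 libraries and bars are SD. Cyp2c70 in 129 chow is highest at ZT 2 and in 129 HFD at ZT 14, and the wide bars at ZT 22 in B6 HFD for Cyp2c29 and Cyp2c37 come from replicate 3.

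In the Errg-Cre set, where 17.9% of all genes passed the rhythm test, 2 of 8 tested members did. Cyp2c54 had an amplitude of 0.40 log2 and a peak at ZT 20.4 h (limma adjusted p = 0.0108), and Cyp2c70 an amplitude of 0.39 and a peak at ZT 17.2 h (limma adjusted p = 0.0330). The Cyp2c70 values were highest at ZT 18, with 8743, 9075 and 8105. Without replicate 1 neither passed (limma adjusted p = 0.0977 and 0.231), nor without replicate 3 (limma adjusted p = 0.118 and 0.0799), nor after removal of the GC and length trend (limma adjusted p = 0.0568 and 0.159). The Cyp2c70 call was also lost with Mir6236 as a covariate (limma adjusted p = 0.0583). In the Esrrg LKO set, where 6.09% of all genes passed, 0 of 7 tested members did (limma, with no unadjusted p below 0.05 among them).

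The levels in the last 2 sets stand in their own tables and are given without a test. In Errg-Cre livers the medians were 6447 for Cyp2c29, 5561 for Cyp2c70, 1073 for Cyp2c39, 524 for Cyp2c37, 18.7 for Cyp2c40 and 0.44 for Cyp2c55. In Esrrg LKO livers they were 2587 for Cyp2c29, 1208 for Cyp2c70, 20.4 for Cyp2c39, 1179 for Cyp2c37, 1.46 for Cyp2c40 and 8.11 for Cyp2c55. Cyp2c39 was thus high in the set with the 129 label and low in the one titled B6, as in the wild-type sets. Within Errg-Cre, ZT 2 replicate 2 and ZT 22 replicate 3 held 2900 and 2760 of Cyp2c37, where the other 16 libraries lay between 327 and 994. The same 2 libraries were also above the other 16 for Cyp2c29 (11993 and 13318), Cyp2c50 (7315 and 6118) and Cyp2c55 (7.53 and 9.23). Their Cyp2c39 (669 and 792) was within the range of the others.

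Copies varied together between replicates to unequal degrees. Over the 72 wild-type libraries, as deviations from the mean of each group of 3, Pearson's r was 0.95 between Cyp2c54 and Cyp2c50, 0.95 between Cyp2c37 and Cyp2c54 and 0.94 between Cyp2c29 and Cyp2c50. Without ZT 22 replicate 3 of B6 HFD these were 0.93, 0.87 and 0.69. For Cyp2c40 and Cyp2c69, the most similar pair in sequence, r was 0.23 (0.21 without that library), and for Cyp2c38 and Cyp2c39 it was 0.28 (0.31). These points share libraries, normalisation and, for the close copies, reads, and are given as a description.

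The genes outside the family with the profile most like each member, by Pearson's r over the 24 wild-type group means, were as follows. For Cyp2c29 they were Cyp3a59 (0.97), Gsta2 (0.96) and Ugt2b1 (0.96), all of drug metabolism, and for Cyp2c55 Ugt2b34 (0.93), Cyp3a11 (0.92) and Gsto1 (0.91). For Cyp2c39 they were Prelid2 (0.98), Ctse (0.98) and Ifi202b (0.97), and for Cyp2c37 Ces1g (0.96), Sugct (0.96) and Mme (0.95). For Cyp2c40 they were Csad (0.88), Nmt2 (0.87) and Abcc4 (0.86), and for Cyp2c69 Abcc4 (0.86), Hook1 (0.85) and Sh3glb1 (0.84). For Cyp2c54 they were Slco1a1 (0.90), Car1 (0.86) and Hibadh (0.85), and for Cyp2c50 Ces1c (0.94), B2m (0.90) and Carnmt1 (0.89). For Cyp2c38 they were Acss3 (0.86), Pon1 (0.86) and Clns1a (0.85), and for Cyp2c70 Rab18 (0.93), Glrx2 (0.92) and Prdm9 (0.90).

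The counts in this paragraph stand beside 27.5% of all genes called higher and 32.7% lower in B6, and 10.9% higher and 7.45% lower in 129. Of 15 genes for CAR, PXR and their known targets, 10 fell and 3 rose on HFD in B6, and 7 fell and 2 rose in 129. Their median differences were -0.61 and -0.57 log2, against -0.06 and 0.04 over all genes. The furthest lower were the P450 genes Cyp2b10 (-5.08 ± 0.29 in B6 and -3.47 ± 0.29 in 129) and Cyp3a11 (-4.97 ± 0.37 and -4.95 ± 0.37) and the glutathione transferase Gstm3 (-3.31 ± 0.23 and -2.54 ± 0.23). Nr1i3, which encodes CAR and is named here after its values were seen, rose by 1.38 ± 0.14 in B6 and 0.73 ± 0.14 in 129. Of 4 tested Cyp2c symbols outside the 10, all fell in B6 and 3 in 129. The pseudogene Cyp2c53-ps, next to Cyp2c29, differed by -3.36 ± 0.29 and -3.19 ± 0.29, and shares 83.2% of aligned bases with it.

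The counts that follow stand beside 27.5% of all genes called higher and 32.7% lower in B6, and 10.9% higher and 7.45% lower in 129. Of 13 genes for other steps of arachidonic acid oxidation and epoxide breakdown, 4 rose and 4 fell in B6, and 1 rose and 2 fell in 129 (medians -0.15 and 0.00). The omega-hydroxylases Cyp4a12b (-3.47 ± 0.36) and Cyp4a12a (-2.59 ± 0.25) fell in B6, and Cyp4a12b also in 129 (-1.97 ± 0.36). Ephx2, which hydrolyses the epoxides, rose in 129 (0.47 ± 0.06) and in B6 (0.25 ± 0.06). Of 13 bile acid genes 7 rose and 4 fell in B6, and 3 rose and 1 fell in 129 (medians 0.25 and 0.11). In B6 Nr0b2, the repressor SHP, rose by 1.98 ± 0.32 and Hsd3b7 by 1.07 ± 0.09, and Cyp7a1, the rate-limiting enzyme of bile acid synthesis, fell by 0.87 ± 0.22. Of 13 genes for electron donors and heme supply 5 rose and 2 fell in B6, and 2 rose and 3 fell in 129 (medians 0.23 and 0.01). Por, the reductase that feeds these enzymes, differed by 0.20 ± 0.17 in B6 (limma adjusted p = 0.301) and fell by 0.64 ± 0.17 in 129.

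Beside the counts below stand 27.5% of all genes called higher and 32.7% lower in B6, and 10.9% higher and 7.45% lower in 129. Of 18 liver, clock-output and growth hormone factors 6 rose and 6 fell in B6, near the shares over all genes (median -0.13 log2). Among them were Socs2 (-1.10 ± 0.39) and Dbp (0.999 ± 0.27). In 129, 1 fell (Onecut1, -1.16 ± 0.35) and the median of the list was -0.05. Cyp2c genes are known to lie mainly in pericentral hepatocytes. Of 12 pericentral genes 7 rose and 2 fell in B6 and 4 rose and 2 fell in 129. Of 12 periportal genes 4 rose and 5 fell in B6, near the shares over all genes, and 1 rose and 5 fell in 129. Rhbg (2.02 ± 0.26), Lect2 (1.53 ± 0.09) and Gulo (1.33 ± 0.09) were furthest higher among the 7 pericentral genes that rose in B6. The 2 that fell there are not named here.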

How the data were processed

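RNA-seq of whole liver was analysed from 3 deposited tables, with 72 wild-type libraries in the first and 18 in each of the others. The signal the authors deposited is, for each RefSeq transcript, a read number after quantile normalisation. STAR, HOMER and the mm10 build are named, per the submitters' processing notes, and their versions are not given in the sources used here. Quantile normalisation gives each library of a table the same sorted values, so depth and counting error are unknown. The 18 columns headed GFP match no label and were left out. The columns used for Esrrg LKO are headed ErrgCre and do not carry the group's name; they were tied to these samples because the sample descriptions name that table, and the match could not be checked further.

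Values were tested as log2(value + 1) by limma 3.58.1 (R 4.3.3) with a mean-variance trend, after a filter of mean at least 10 that left 11287 wild-type genes, 11622 with Errg-Cre and 11946 with Esrrg LKO. Wild-type libraries were fitted as 24 group means, with contrasts averaged over 6 times, and rhythms as a 24 h cosine (moderated F test), with Benjamini-Hochberg adjustment over all genes tested. Ratios of members that follow each other in order of start used 100000 permutations within time. Differences are on the log2(value + 1) scale, which understates the change of low genes. Transcripts (GENCODE M21, matched by RefSeq identifier) and promoters (RefSeq) were aligned with Biopython 1.88, and scripts were tested on simulated data. The alternatives were a pseudocount of 10, no filter, eBayes without trend, a replicate block, each replicate number or the 3 libraries with most low values left out, GC and length trend removed, and Mir6236 as a covariate. Leaving out B6 HFD ZT 22 replicate 3 was added after seeing the data. Named genes were the 10 members, other Cyp2c symbols, up to 4 most changed genes of each list past the threshold, the 3 most similar genes of each member, Esrrg and Mir6236. The members and lists were chosen with earlier results of these data known. Some genes that this rule names are not reported here.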

Additional observations from a re-analysis of the deposited data

Results flagged for a closer look

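The 4 results below are listed because a test of the difference between groups itself passed. The diet by strain interaction passed for Cyp2c40, with 5.21 log2 (limma adjusted p = 4.73e-13), for Cyp2c69, with 4.0 (limma adjusted p = 4.86e-08), and for Cyp2c70, with 0.70 (limma adjusted p = 0.000525). For Cyp2c40 and Cyp2c69 the values in 129 were near 0 on both diets and the filter was passed through B6 chow alone, so these 2 interactions restate the fall in B6. The rhythm of Cyp2c70 in 129 differed between diets, with a change of 0.88 log2 (limma adjusted p = 0.00932). No gap test of single values was run, since groups hold 3 libraries and sets 18. The library B6 HFD ZT 22 replicate 3 was set apart by its marker levels.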

How the results depend on the processing

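Of 550 comparisons of a member's diet, strain or interaction difference with an alternative, 504 kept their direction and side of the threshold, 22 passed only under the alternative, 12 no longer passed, and 12 changed sign with no call in either fit. The counts of members called for the diet and strain effects stayed within 1.5 times under every alternative run. The interaction count of 3 became 6 with a pseudocount of 10, 6 without the 3 libraries with most low values, and 3 to 5 with replicates left out (5 without B6 HFD ZT 22 replicate 3). The rhythm count in 129 chow, 1, became 2 with a pseudocount of 10 and 0 to 5 with replicates left out. It was 5 without B6 HFD ZT 22 replicate 3, where 5638 of all 11287 genes passed. The change of rhythm in 129, 1, became 0 with Mir6236 and 0 to 1 with replicates left out. In Errg-Cre 2 became 1 with no filter, 0 without the GC and length trend, 1 with Mir6236 and 0 to 1 with replicates left out. In B6 HFD 0 became 1 without the GC and length trend. In 129 HFD 0 became 1 without the 3 libraries with most low values, without the GC and length trend and with Mir6236. The change in the ratio of Cyp2c55 to Cyp2c29 in 129 reversed from -2.33 to 0.13 with a pseudocount of 10 (adjusted permutation p = 0.21), which is above every Cyp2c55 value in 129 HFD. For the others the cause was not tested.

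With a replicate block the members called were 7 (diet in B6), 3 (diet in 129), 8 and 6 (strain on chow and HFD), 4 (interaction) and, for rhythms, 0, 0, 1, 0, 2 and 0. Cyp2c54 passed the interaction with the block (limma adjusted p = 0.0478). The replicate numbers did not pair the samples: of 36 correlations between same-numbered samples 5 were over 0.1 (-0.30 to 0.39). Counts of all genes called moved by over 1.5 times with Mir6236 as a covariate, from 6792 to 564 (diet in B6), 5976 to 1445 (strain on chow), 3881 to 14 (interaction) and 5395 to 1662 (rhythm in 129 chow). Without replicate 2 they moved from 2071 to 556 (diet in 129), 3647 to 2077 (strain on HFD), 3881 to 1296 (interaction) and 5395 to 2160 (rhythm in 129 chow). The interaction count was 2063 without replicate 3 and 1810 after removal of the GC and length trend. With a replicate number left out, rhythm counts were 162 to 398 in B6 chow (from 695), 140 to 223 in B6 HFD (461), 235 to 508 in 129 HFD (795), 368 to 495 in Errg-Cre (2076) and 166 to 481 in Esrrg LKO (727). The change of rhythm with diet was called for 0 to 11 genes in 129 (from 142) and 0 in B6 (from 6). It was called for 281 and 14 without the 3 libraries with most low values, and in 129 for 31 with no filter and 11 with Mir6236. Errg-Cre rhythms were 1026 with no filter, 1283 without the GC and length trend and 908 with Mir6236, and Esrrg LKO rhythms 483 with no filter. Since depth is unknown, levels near 0 could not be given an interval.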
